A study of Mus musculus with 6 samples.

Results

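Atf4 and Ddit3 encode transcription factors of the integrated stress response, and they are described here as 2 of the 13409 genes that had a named probe on the arrays. Both genes were chosen by their log ratios on these same arrays, so their values are given as a description with no test. Each gene had 1 probe, number 3636 for Atf4 and number 2170 for Ddit3, out of 19200 probes. The mice were C57BL/6J males aged 12 weeks, and the tissue was white fat of the epididymal depot. A group of 6 mice was injected with CL-316,243, which activates the beta3-adrenergic receptor, at 1 mg per kg body weight, the other 6 mice with saline, and the fat was collected 3 hr later. The description spells the agonist CL316,246, while the titles and sources spell it CL-316,243. The labels name no altered gene in either group.

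Equal amounts of RNA from the mice of each group were pooled, and the same 2 pools were hybridised against each other on 6 arrays with 2 colours. Arrays 1, 2 and 3 carried the CL-316,243 pool in channel 1, and arrays 4, 5 and 6 carried it in channel 2. The 6 arrays were therefore repeat hybridisations of 1 biological replicate, and the variation between mice was not measured. Every p-value below, from limma with Benjamini-Hochberg adjustment over all genes tested, measures the spread between arrays and compares these 2 pools only.

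Each value is a log ratio of the 2 pools, read here as log2. Were the ratios natural logs, each would be 1.44 times larger in log2 units. The sources used here do not give which pool is the numerator, so "higher" and "lower" below mean higher or lower in the numerator pool on arrays of both orientations. Every direction turns round if saline is the numerator. Il6, Dio2 and Ppargc1a, which are known to rise in fat after beta3 agonists, had ratios above 0 on 6 of 6 arrays each, with means of 1.77 ± 0.19 for Il6, 1.18 ± 0.19 for Dio2 and 0.77 ± 0.16 for Ppargc1a (limma SE).

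The integrated stress response joins several kinases that phosphorylate the alpha subunit of eIF2, the factor that brings the initiator tRNA to the ribosome. Phosphorylated eIF2 slows most translation but lets the Atf4 message be translated through its upstream open reading frames, and ATF4 protein then activates genes for amino acid supply, redox balance and further transcription factors. Ddit3, also called Chop, is one of the genes ATF4 activates, and its protein pairs with C/EBP factors. In fat cells DDIT3 is known as an inhibitor of adipocyte differentiation through its pairing with C/EBP proteins. The beta3 receptor acts through cAMP and protein kinase A, which phosphorylates CREB, a factor of the same bZIP class as ATF4.

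The promoters of both genes are shown because the arrays measured transcripts, whose level the promoter helps to set, and because they can be searched for the elements that ATF4, CREB and their relatives bind. Each is the 250 bases before the transcription start in RefSeq, build GRCm38.p6, on the plus strand, at chr15:80254934-80255183 for Atf4 and chr10:127290543-127290792 for Ddit3. Capitals mark the motif matches named in the next paragraph.
Atf4: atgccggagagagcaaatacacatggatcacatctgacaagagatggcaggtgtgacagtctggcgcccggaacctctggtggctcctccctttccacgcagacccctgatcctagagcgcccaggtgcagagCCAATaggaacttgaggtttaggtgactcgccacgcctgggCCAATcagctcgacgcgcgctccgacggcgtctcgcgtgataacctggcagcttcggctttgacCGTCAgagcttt
Ddit3: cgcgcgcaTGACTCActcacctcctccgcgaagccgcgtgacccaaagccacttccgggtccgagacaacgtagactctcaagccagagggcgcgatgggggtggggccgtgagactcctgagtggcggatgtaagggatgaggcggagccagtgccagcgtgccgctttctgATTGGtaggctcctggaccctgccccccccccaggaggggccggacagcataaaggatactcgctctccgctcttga

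Both strands were searched for 6 motifs, and a position counts the first base of a match back from the start. The Atf4 window held CCAAT, the box bound by NF-Y, at -117 and at -76, and it held CGTCA at -12, the other strand of the cAMP response half-site TGACG. The Ddit3 window held ATTGG at -77, the other strand of CCAAT, and TGACTCA at -242, a match to the AP-1 motif TGANTCA. Neither window held the C/EBP-ATF composite element TGATGNAA or the full cAMP response element TGACGTCA, which contains the half-site, and neither held the endoplasmic reticulum stress response element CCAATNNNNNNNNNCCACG, which contains CCAAT. Among 32851 mouse promoter windows of that length, 33.8% held CCAAT, 17.8% held TGACG, 6.75% held TGANTCA, 3.45% held TGATGNAA, 1.55% held TGACGTCA and 0.113% held the endoplasmic reticulum stress response element. A match describes letters in a window and is not a measured binding site, and the absence of a match says nothing of the factor.

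Atf4 was higher on every array. Its log2 ratios were 1.98, 2.42 and 1.15 on arrays 1, 2 and 3, with CL-316,243 in channel 1, and 1.24, 1.85 and 1.502 on arrays 4, 5 and 6, with CL-316,243 in channel 2. Array 2 gave the highest value and array 3 the lowest, both within the same orientation, and the values of the other orientation lay between them. The mean log2 ratio was 1.69 ± 0.49 (SD, n = 6 arrays), a 3.23-fold difference between the pools. The means were 1.85 ± 0.65 with CL-316,243 in channel 1 and 1.53 ± 0.31 with it in channel 2 (SD, n = 3 arrays each), a difference of 0.32 that is smaller than the larger SD. Leaving out any 1 array kept the mean between 1.55 and 1.87.

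Ddit3 was higher on 5 of the 6 arrays and by less. Its log2 ratios were 0.84, 1.15 and -0.17 on arrays 1, 2 and 3 and 1.16, 0.84 and 0.51 on arrays 4, 5 and 6. Array 3 stood below 0 while the other arrays of its orientation lay within the range of arrays 4 to 6, so the orientations overlapped. The mean log2 ratio was 0.72 ± 0.50 (SD, n = 6 arrays), a 1.65-fold difference between the pools. The means were 0.61 ± 0.69 with CL-316,243 in channel 1 and 0.84 ± 0.32 with it in channel 2 (SD, n = 3 arrays each), and their difference of -0.23 was smaller than either SD. Without array 3 the mean was 0.92, and leaving out any 1 array kept it between 0.59 and 0.92.

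The Atf4 ratio exceeded the Ddit3 ratio on 6 of 6 arrays. The difference, Atf4 minus Ddit3, was 1.14, 1.27 and 1.32 on arrays 1, 2 and 3 and 0.08, 1.01 and 0.99 on arrays 4, 5 and 6, with a mean of 0.97 ± 0.46 (SD, n = 6 arrays). Array 4 stood apart, with nearly equal ratios for both genes. The comparison is of ratios and not of levels, since 2 probes have no common scale. In bulk fat, fewer cells of a type and less RNA per cell cannot be told apart, for these genes as for all that follow.

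**Figure D1:**
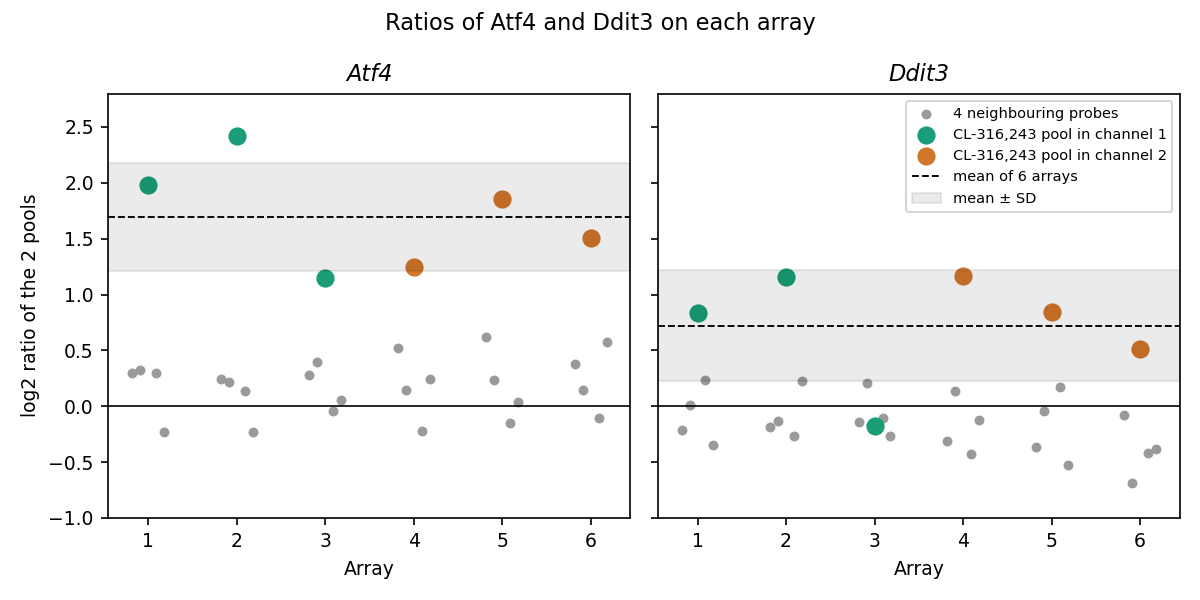
Log2 ratio of the 2 pools (y axis) on each array (x axis) for Atf4 (left) and Ddit3 (right), with green points for the CL-316,243 pool in channel 1 and orange points for channel 2. Dashed lines are means of 6 arrays, bands are ± SD, and grey points are the 4 neighbouring probes. Atf4 lies between 1.15 and 2.42 on all arrays, while Ddit3 falls to -0.17 on array 3.

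Both genes ranked high among the 12667 genes tested, with Atf4 at rank 28 from the highest mean ratio and Ddit3 at rank 216. Within single arrays, Atf4 lay between percentiles 97.7 and 99.8 of all probes with a value used, named or not. Ddit3 lay between percentile 31.0, on array 3, and percentile 98.1. Rows of the deposited table were nearly uncorrelated between arrays and empty cells stood at the foot of each column, so each column was taken to have dropped spots and closed the gaps, and its values were placed on the probe numbers before use. Read by rows as deposited, the mean log2 ratio was 0.025 for Atf4 and 0.18 for Ddit3, so both results rest on that placement. It gave every position of both probes a posterior of at least 0.998. When it ignored these 2 probes the values did not change, while the posteriors on array 2 were 0.979 for Atf4 and 0.984 for Ddit3. The 2 probes on either side gave 24 values each, from -0.23 to 0.62 (median 0.22) around Atf4 and from -0.69 to 0.23 (median -0.17) around Ddit3. All Atf4 values therefore lay above those of its neighbours, while the value of Ddit3 on array 3 lay among those of its neighbours.

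Over the 6 arrays, the genes whose ratios lay nearest to those of Atf4 by root mean square difference were Ugdh (0.227), Akap2 (0.399), Tnfsf14 (0.407), Dusp16 (0.432) and Akap12 (0.470), out of 7685 genes with a value on every array. Ddit3 was farther off, at 1.06. Ugdh encodes UDP-glucose dehydrogenase, Akap2 and Akap12 encode anchoring proteins for protein kinase A, Tnfsf14 encodes a cytokine of the TNF family and Dusp16 a phosphatase of MAP kinases. The genes nearest to Ddit3 were Wdr43 (0.218), Prom2 (0.218), Il1rap (0.222), Ptpn23 (0.226) and Dusp4 (0.246). Dusp4 encodes another phosphatase of MAP kinases and Il1rap a co-receptor of the interleukin-1 receptor.

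Over all genes, limma called 250 of 12667 higher, or 1.97%, and 165 lower, or 1.3%, at an adjusted p under 0.05. A rule of size, which asked for a mean of 1.5-fold or more and for ratios on 1 side of 0 wherever the gene was measured, took 261 genes higher, or 2.06%, and 144 lower, or 1.14%. These calls changed when single arrays were left out. They were 91 higher and 30 lower of 11644 tested without array 5, and 105 and 46 of 7851 without array 1. Without array 4 they were 155 and 68 of 12631. Each such fit also had fewer arrays and fewer genes tested. The median log2 ratio over all genes was -0.01. The share of probes placed ran from 62.6% on array 2 to 99.8% on array 6, so many genes have 4 or 5 values in place of 6. Precision is limited by the number of arrays, and signal intensities were not analysed here. The dye orientation itself had an adjusted p under 0.05 for 1 gene of 12667. With at most 3 arrays in each orientation, this count does not show that orientation mattered little. The mean Spearman correlation of placed arrays was 0.28 within an orientation and 0.11 between orientations.

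Among genes for eIF2 and its control, both regulatory subunits of the eIF2alpha phosphatases were called higher. None of the 4 eIF2 kinases was called. Of 21 tested genes for eIF2 kinases, eIF2, eIF2B and the eIF2alpha phosphatases, from a list of 27, 2 were called higher and 0 lower. The share called higher was 9.52%, against 1.97% of all genes, and 1.3% of all genes were called lower. The list median was 0.02, against -0.01 for all genes. Of the 21, 5 had an unadjusted limma p under 0.05, or 23.8%, against 18.6% of all genes. Ppp1r15a, or Gadd34, the stress-inducible subunit that brings protein phosphatase 1 to eIF2alpha, had log2 ratios of 1.30 and 0.43 on arrays 1 and 3 and 0.74 and 0.86 on arrays 5 and 6. Ppp1r15b, its constitutive counterpart, had 0.62, 0.98 and 0.60 on arrays 1, 2 and 3 and 0.75, 0.82 and 0.25 on arrays 4, 5 and 6. In both genes the orientations overlapped and no array was below 0. The mean was 0.83 ± 0.17 for Ppp1r15a (limma SE, 4 arrays, adjusted p = 0.0444) and 0.67 ± 0.12 for Ppp1r15b (6 arrays, adjusted p = 0.0150). Ppp1r15a was counted in this list alone, so the counts of ATF4 and DDIT3 targets below leave it out. Its place upstream or downstream of Atf4 was not tested.

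The calls of Ppp1r15a and Ppp1r15b did not hold in every fit that left out 1 array. Ppp1r15b lost its call without array 4 or without array 5, with means of 0.62 to 0.63. Ppp1r15a had no value on array 4, yet it lost its call in the fit without that array, with its own values and its mean of 0.83 unchanged. Without array 1, 3, 5 or 6 it had too few values to be tested. Whether its call depends on an array that measured it is therefore not known.

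The kinases that start the response had small ratios of either sign. Eif2ak3, or PERK, which senses unfolded protein in the endoplasmic reticulum, averaged 0.21 ± 0.13 (limma SE, 5 arrays, adjusted p = 0.417). Eif2ak4, or GCN2, which senses uncharged tRNA, averaged -0.29 ± 0.14 (4 arrays, adjusted p = 0.323). Eif2ak2, or PKR, which binds double-stranded RNA, averaged -0.21 (6 arrays, adjusted p = 0.667), and Eif2ak1, or HRI, which senses haem, averaged -0.02 (6 arrays, adjusted p = 0.952). Messenger levels of kinases do not measure their activity.

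Among the other genes of the eIF2 list, Eif2b1, the alpha subunit of the exchange factor eIF2B, averaged 0.60 ± 0.19 (limma SE, 4 arrays) and was past the rule of size but not called (adjusted p = 0.146). Impact, an inhibitor of GCN2, averaged 0.36 and was not called. The eIF2 subunit genes Eif2s2 and Eif2s3x averaged -0.25 and -0.30, and neither was called. The catalytic phosphatase genes Ppp1ca, Ppp1cb and Ppp1cc stayed between -0.05 and 0.11.

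**Figure D2:**
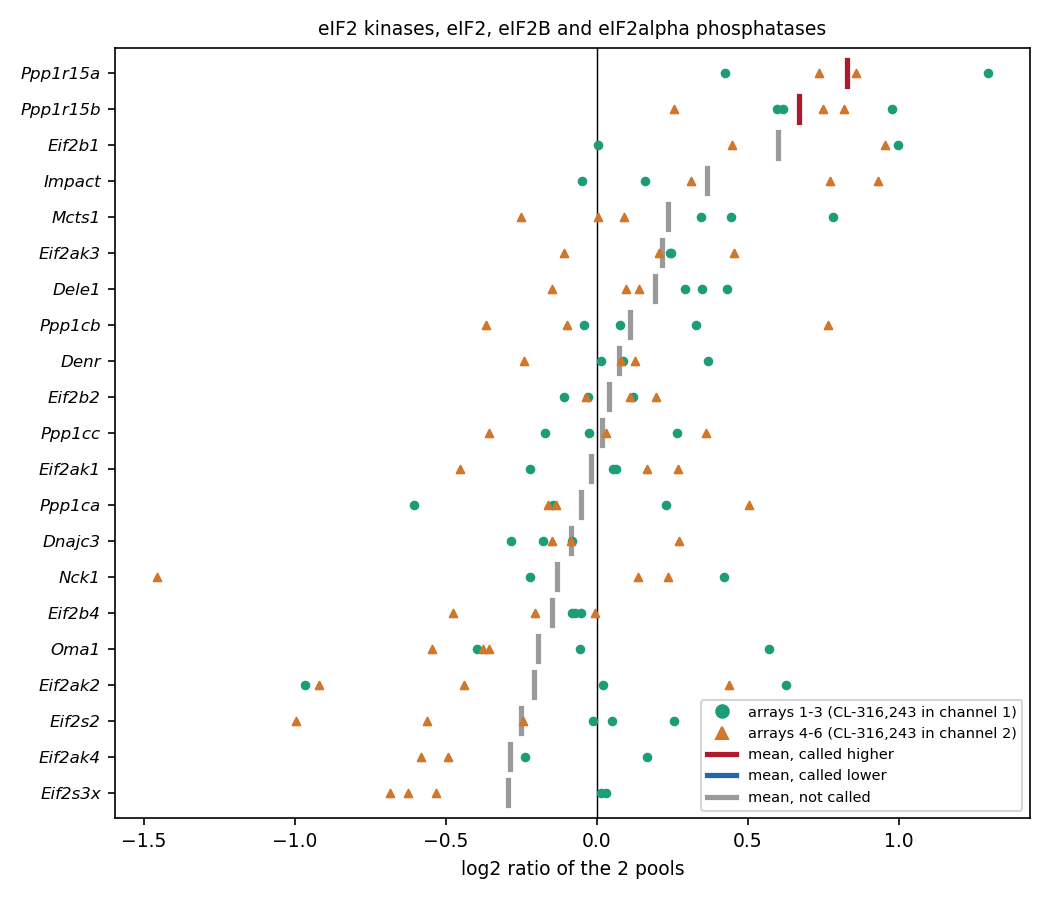
Log2 ratios of the 2 pools (x axis) for the 21 tested genes of eIF2 and its control (y axis, ordered by mean), 1 point per array, with green circles for CL-316,243 in channel 1 and orange triangles for channel 2. Bars are means over arrays, red where limma called the gene higher. Ppp1r15a (0.83) and Ppp1r15b (0.67) are at the top, while the 4 kinases lie between -0.29 and 0.21.

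Downstream of ATF4, few known targets were called. In 4 lists of targets together, 59 of 79 genes were tested, and 7 were called higher (11.9%, against 1.97% of all genes) and 2 lower (3.39%, against 1.3%). Their median log2 ratio was 0.02, against -0.01 for all genes, and the rule of size took 5 genes higher and 2 lower. Of the 59, 19 had an unadjusted limma p under 0.05, or 32.2%, against 18.6% of all genes. The count was sensitive to single arrays. It was 3 higher and 0 lower of 36 tested without array 1, 3 and 2 of 59 without array 4, and 1 and 1 of 50 without array 5.

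The aminoacyl-tRNA synthetases, which charge tRNAs with their amino acids, held most of these calls. Of 16 tested genes for the cytosolic enzymes, from a list of 20, 5 were called higher (31.2%, against 1.97% of all genes) and 1 lower (6.25%, against 1.3%), with a median of 0.13. An unadjusted limma p under 0.05 was found for 8 of the 16, or 50%, against 18.6% of all genes. Yars, for tyrosine, had log2 ratios of 0.71, 1.04 and 0.79 on arrays 1, 2 and 3 and 0.43, 0.59 and 0.82 on arrays 4, 5 and 6, overlapping between orientations. Its mean was 0.73 ± 0.11 (limma SE, 6 arrays, adjusted p = 0.00622), and it kept its call whichever array was left out.

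The other 4 synthetases called higher were smaller in ratio. Wars, for tryptophan, averaged 0.61 (5 of 5 arrays above 0, adjusted p = 0.0427). Nars, for asparagine, averaged 0.57 (6 of 6 arrays, adjusted p = 0.0430), and Cars, for cysteine, 0.55 (6 of 6 arrays, adjusted p = 0.0178). Eprs, the enzyme for glutamate and proline, averaged 0.53 (6 of 6 arrays, adjusted p = 0.0324). None of these 4 calls held in every fit that left out 1 array. Cars lost its call without array 4 or 5, and so did Wars, which could not be tested without array 1 or 3. Eprs lost its call without array 2, 4, 5 or 6, and Nars its call without array 1, 2, 4, 5 or 6.

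Tars, for threonine, went the other way. Its log2 ratios were -1.71 and -0.59 on arrays 1 and 3 and -1.18 and -0.66 on arrays 5 and 6, all below 0 and overlapping between orientations. The mean was -1.03 ± 0.20 (limma SE, 4 arrays, adjusted p = 0.0385), and it could not be tested with 1 of these arrays left out. The other 10 tested synthetases were not called and averaged between -0.31 for Lars and 0.39 for Farsa.

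Among enzymes of amino acid synthesis and one-carbon metabolism, 1 of 11 tested genes was called higher and 0 lower, from a list of 19. The share called higher was 9.09%, against 1.97% of all genes, and 1.3% of all genes were called lower. The list median was -0.01. Of the 11, 3 had an unadjusted limma p under 0.05, or 27.3%, against 18.6% of all genes. The gene called was Got1, the cytosolic aspartate aminotransferase. Its log2 ratios were 1.38, 1.61 and 0.60 on arrays 1, 2 and 3 and 1.88, 1.14 and 0.34 on arrays 4, 5 and 6. Array 6 was the lowest and array 4 the highest, so the orientations overlapped. The mean was 1.16 ± 0.20 (limma SE, adjusted p = 0.0131), and the call was lost without array 1 or 5, at 1.11 to 1.15. Chac1, which degrades glutathione, averaged 0.74 ± 0.18 with 5 of 5 arrays above 0 but was not called (adjusted p = 0.0652). Without array 6 it was called, at 0.92. Shmt2, the mitochondrial serine hydroxymethyltransferase, averaged 0.45 with 6 of 6 arrays above 0 (adjusted p = 0.0606), and it was called without array 3, at 0.52.

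Asns, asparagine synthetase and a widely used readout of ATF4 activity, was not called. Its log2 ratios were 0.19 and -0.51 on arrays 1 and 3 and -0.13, -0.23 and -0.27 on arrays 4, 5 and 6, so 1 of 5 arrays was above 0. The mean was -0.18 ± 0.14 (limma SE, adjusted p = 0.519). Asns and Atf4 were thus on opposite sides of 0 on 4 of the 5 arrays that measured both.

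Among amino acid transporters, 0 of 11 tested genes were called higher and 1 lower, from a list of 13, with a median of -0.02. The share called lower was 9.09%, against 1.3% of all genes, and 1.97% of all genes were called higher. Of these 11 genes, 2 had an unadjusted limma p under 0.05, or 18.2%, against 18.6% of all genes. The gene called lower was Slc1a3, a glutamate and aspartate carrier, at -0.77 and -0.91 on arrays 1 and 3 and -1.06, -1.39 and -0.99 on arrays 4, 5 and 6. All arrays were below 0, and the values with CL-316,243 in channel 2 lay below those with it in channel 1. The mean was -0.99 ± 0.12 (limma SE, 5 arrays, adjusted p = 0.00414), and the call could not be tested without array 1 or 3. Slc43a1, a carrier of neutral amino acids, averaged -0.61 and was not called (adjusted p = 0.136), but it was called lower without array 3, at -0.80. Slc7a11, the cystine and glutamate exchanger, averaged 0.25 over 4 arrays and was not called. Its mean was 0.10 with CL-316,243 in channel 1 and 0.41 with it in channel 2, without overlap.

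**Figure D3:**
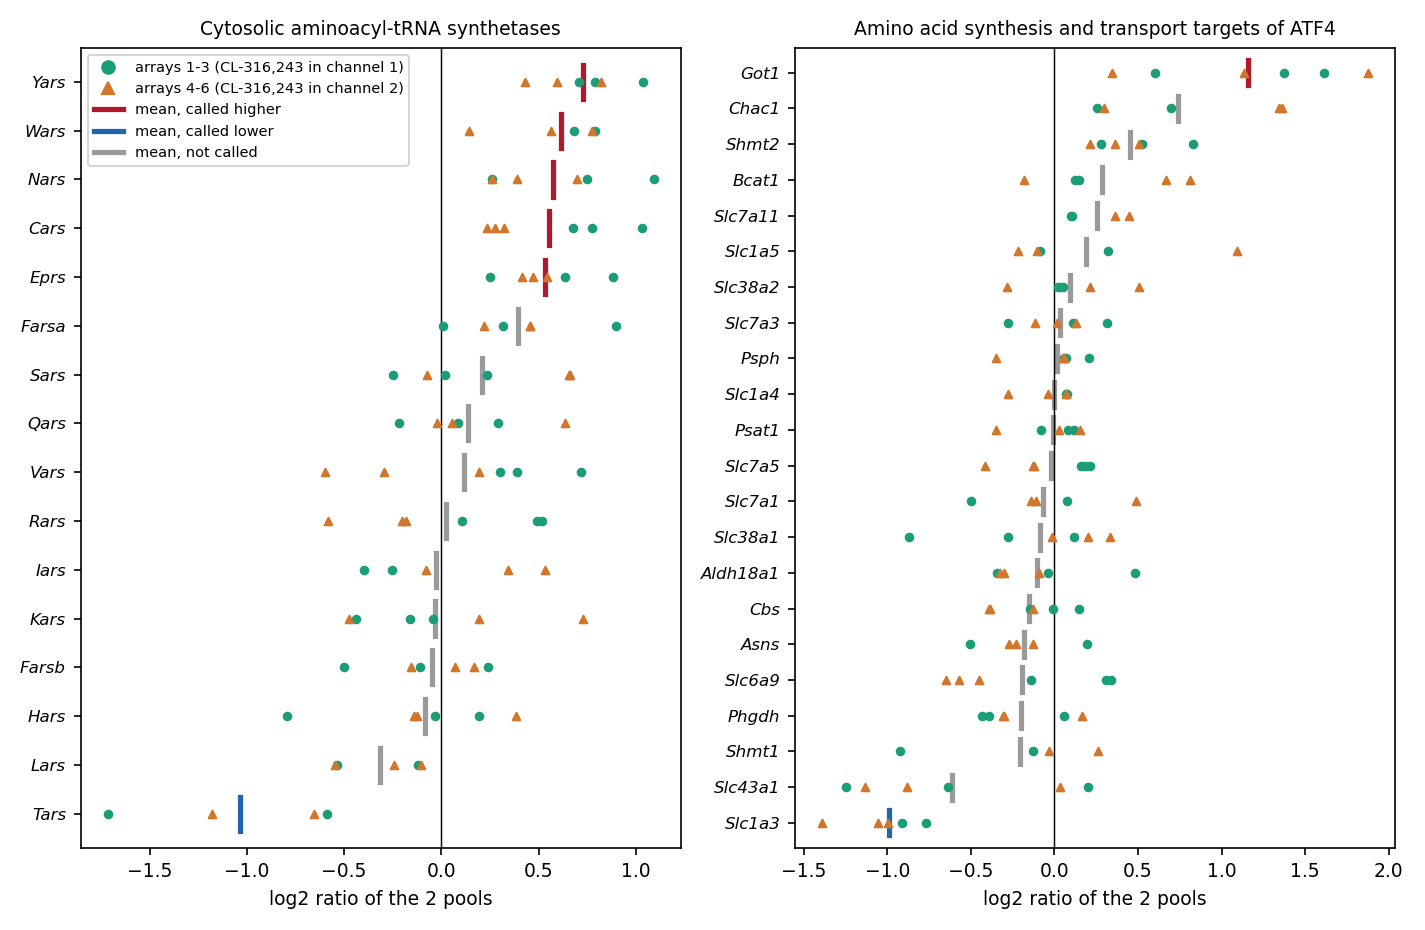
Log2 ratios of the 2 pools (x axis) for the 16 tested cytosolic aminoacyl-tRNA synthetases (left) and the 22 tested amino acid synthesis and transport targets of ATF4 (right), 1 point per array, with green circles for CL-316,243 in channel 1 and orange triangles for channel 2. Bars are means, red where called higher and blue where called lower by limma. Got1 (1.16) is at the top and Slc1a3 (-0.99) at the bottom of the right panel, with Asns at -0.18.

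Among regulatory, secreted and autophagy targets, 1 of 21 tested genes was called higher and 0 lower, from a list of 27. The share called higher was 4.76%, against 1.97% of all genes, and 1.3% of all genes were called lower. The list median was 0.04. Of the 21, 6 had an unadjusted limma p under 0.05, or 28.6%, against 18.6% of all genes. The gene called was Cebpg, which encodes a C/EBP factor that pairs with ATF4. Its log2 ratios were 1.61 and 0.80 on arrays 1 and 3 and 1.89 and 1.77 on arrays 5 and 6. The lowest value was on array 3, as for Atf4 and Ddit3, but this was not particular to these genes. Array 3 was also the lowest for Dio2 (0.17) and Ppargc1a (0.19). The genes named above as nearest to Atf4 or Ddit3 shared it too, but they were picked by their match over these same arrays. Array 3 was not the lowest for Il6 or Got1. The mean of Cebpg was 1.52 ± 0.17 (limma SE, 4 arrays, adjusted p = 0.00407), a 2.87-fold difference. The gene could not be tested with 1 of its 4 arrays left out. Trib3, a pseudokinase induced by ATF4 and DDIT3, averaged 0.25 ± 0.15 with 4 of 6 arrays above 0 and was not called (adjusted p = 0.425). Atf3, a repressor of the same family, averaged -0.24 ± 0.16 with 2 of 6 arrays above 0 and was not called (adjusted p = 0.460). The remaining large ratios in this list, Atg12 at -0.53 and Sqstm1 at 0.49, were not called.

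The known binding element of ATF4 can be set beside these calls. It is TGATGNAA, whose other strand reads TTNCATCA, and in 45 tested targets with a promoter window it was found in 9 windows, in 2 of 6 called genes and 7 of 39 genes not called. The called genes with it were Got1 and Tars, 1 called higher and 1 lower, and Asns, Atf3 and Chac1 were among the genes not called. Of the 9 targets with it, 6 had a mean ratio above 0 and 3 below. Short windows around 5 such matches are shown, for the 3 genes below 0 and the 2 with the highest ratios, because genes with the same letters had ratios of both signs, and that of Ppp1r15a because it held the full cAMP response element that the Atf4 and Ddit3 windows lacked. Each has 30 bases, written in the direction of transcription from RefSeq, build GRCm38.p6, with the match in capitals. They lie on the minus strand at chr19:43524689-43524718 for Got1, chr15:11399659-11399688 for Tars, chr6:7693214-7693243 for Asns, chr1:191183425-191183454 for Atf3 and chr7:45526269-45526298 for Ppp1r15a, and on the plus strand at chr2:119351038-119351067 for Chac1.
Got1: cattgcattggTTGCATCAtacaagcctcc
Tars: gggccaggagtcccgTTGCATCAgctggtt
Asns: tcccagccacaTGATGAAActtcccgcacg
Chac1: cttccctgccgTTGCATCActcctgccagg
Atf3: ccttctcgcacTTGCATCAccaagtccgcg
Ppp1r15a: gagaccccgcctctccggTGACGTCAgcac

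On the DDIT3 side, 0 of 11 tested targets and partners in cell death were called in either direction by limma, from a list of 14. Ppp1r15a, Trib3 and the C/EBP partners of DDIT3 were counted in other lists. There Ppp1r15a, Cebpg and Cebpd were called higher, while Trib3, Cebpa and Cebpb were not called. Over all genes, 1.97% were called higher and 1.3% lower. Of the 11, 3 had an unadjusted limma p under 0.05, or 27.3%, against 18.6% of all genes. The list median was -0.10. Without array 1 it was 0.011, but only 6 of these genes could then be tested. Bak1, which permeabilises the mitochondrial outer membrane, averaged -0.62 ± 0.21 over 4 arrays, of which 1 was above 0 (adjusted p = 0.169). Casp12, a caspase of the endoplasmic reticulum in rodents, averaged -0.49 ± 0.12 with 0 of 6 arrays above 0 (adjusted p = 0.0617). Mcl1, an inhibitor of apoptosis, averaged 0.41 ± 0.17, with 1.33 on array 3 and no other array above 0.24 (adjusted p = 0.243). Errors are limma SEs, and the 2 ratios of this list that were largest in size were both below 0.

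The other branches of the unfolded protein response, which use IRE1 and ATF6, had 1 of 29 tested genes called higher and 0 lower, from a list of 36. The list median was 0.10, and -0.0090 without array 6, where 26 of the genes were tested. The share called higher was 3.45%, against 1.97% of all genes, and 1.3% of all genes were called lower. Of these 29 genes, 11 had an unadjusted limma p under 0.05, or 37.9%, against 18.6% of all genes. The gene called was Creld2, a secreted protein of endoplasmic reticulum stress, at 1.23, 0.83 and 0.64 on arrays 1, 2 and 3 and 0.41, 0.23 and -0.03 on arrays 4, 5 and 6. Its orientations did not overlap, with the higher values where CL-316,243 was in channel 1. The mean was 0.55 ± 0.12 (limma SE, adjusted p = 0.0344), and the call was lost without array 1, 2, 4 or 5.

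Hspa5, or BiP, the main chaperone of the endoplasmic reticulum, averaged 0.68 ± 0.19 (limma SE, 5 arrays) and was not called (adjusted p = 0.0973). Its log2 ratios were 0.99 and 0.86 on arrays 1 and 3 and -0.28, 0.46 and 1.12 on arrays 4, 5 and 6, so array 4 alone was below 0. Without array 4 it was called higher, at 0.86. Manf, a secreted factor that is also induced by endoplasmic reticulum stress, averaged 0.62 ± 0.15 with 5 of 5 arrays above 0 and was not called (adjusted p = 0.0652).

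Among the other bZIP factors of the ATF, CREB and C/EBP families, 2 of 21 tested genes were called higher and 2 lower, from a list of 29, or 9.52% each way against 1.97% and 1.3% of all genes, with a median near 0. An unadjusted limma p under 0.05 was found for 7 of the 21, or 33.3%, against 18.6% of all genes. The genes called higher were Cebpg, given above, and Cebpd, an early factor of adipocyte differentiation. Cebpd had log2 ratios of 0.94 and 0.16 on arrays 1 and 3 and 0.86, 1.16 and 0.88 on arrays 4, 5 and 6, lowest on array 3. Its mean was 0.76 ± 0.14 (limma SE, 5 arrays, adjusted p = 0.0269), but the call was lost without array 4, 5 or 6 and could not be tested without array 1 or 3. Among the other partners of DDIT3, Cebpa averaged 0.53 ± 0.19 with a value of 1.81 on array 3 and was not called (adjusted p = 0.177), and Cebpb averaged -0.06 and was not called (adjusted p = 0.870).

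The bZIP genes called lower were Crebzf and Tef. Crebzf, or Zhangfei, had log2 ratios of -0.54, -0.42 and -0.30 on arrays 1, 2 and 3 and -1.24, -0.84 and -1.16 on arrays 4, 5 and 6, all below 0, with no overlap between orientations. Its mean was -0.75 ± 0.10 (limma SE, adjusted p = 0.00507), and it kept its call whichever array was left out. Tef, a factor with daily rhythms, averaged -0.66 ± 0.14 over 5 arrays, all below 0 (adjusted p = 0.0474), but its call was lost without array 4, 5 or 6 and could not be tested without array 1 or 3. Crem, which is known to be induced through cAMP, averaged 1.05 ± 0.27 with 5 of 5 arrays above 0, from 0.26 on array 3 to 2.39 on array 4, and was not called (adjusted p = 0.0769).

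**Figure D4:**
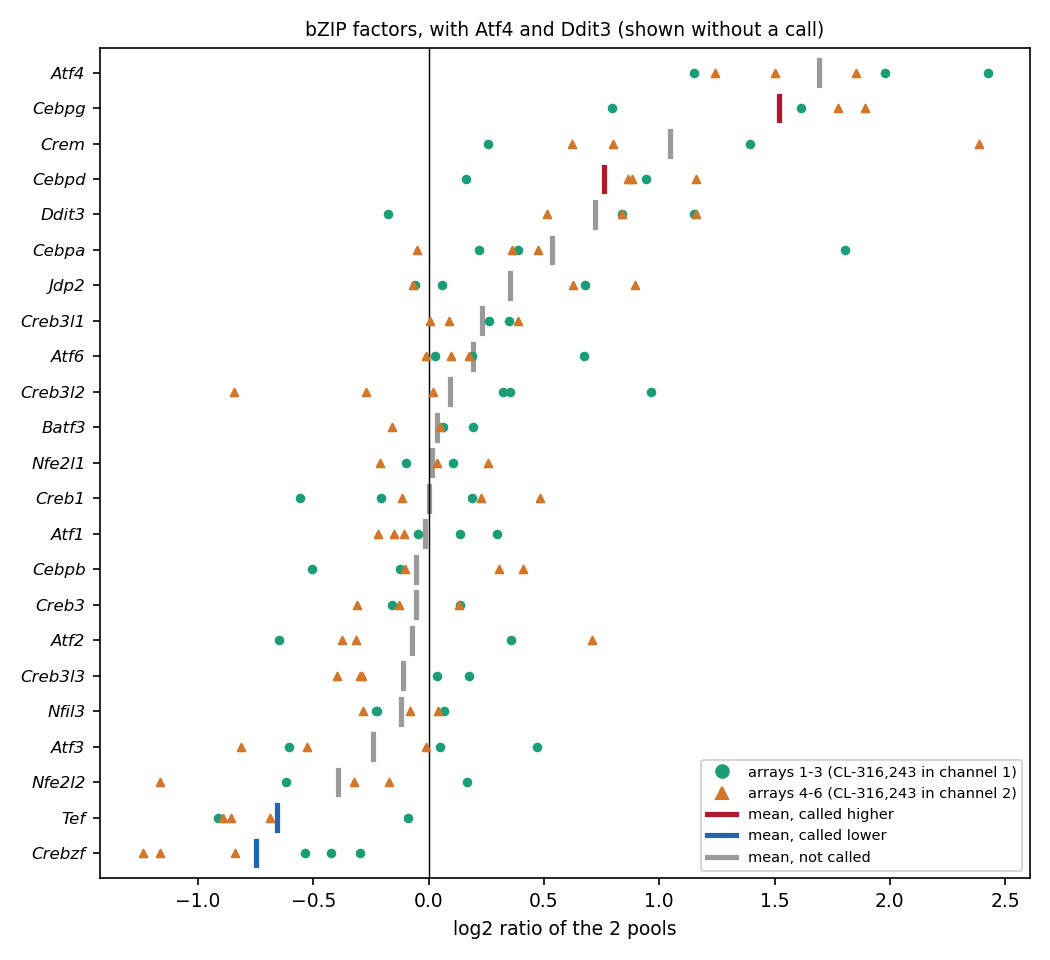
Log2 ratios of the 2 pools (x axis) for Atf4, Ddit3 and the 21 tested bZIP genes (y axis, ordered by mean), 1 point per array, with green circles for CL-316,243 in channel 1 and orange triangles for channel 2. Bars are means, red where called higher and blue where called lower by limma, and Atf4 and Ddit3 carry no call. Atf4 (1.69) and Cebpg (1.52) have the highest means, and Crebzf (-0.75) the lowest.

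Of 12 tested genes that act on ATF4 protein, from a list of 15, 0 were called in either direction by limma. Over all genes, 1.97% were called higher and 1.3% lower. Of the 12, 4 had an unadjusted limma p under 0.05, or 33.3%, against 18.6% of all genes. The list median was 0.03. The kinase gene Nek6 averaged 0.47 ± 0.12 with 5 of 6 arrays above 0 (adjusted p = 0.0775). Egln3, an oxygen-dependent prolyl hydroxylase, averaged 0.39 ± 0.10 with 6 of 6 arrays above 0 (adjusted p = 0.0753). Rps6ka3, the kinase RSK2 that phosphorylates ATF4, averaged -0.26 ± 0.11 with 1 of 6 arrays above 0 (adjusted p = 0.237). Errors are limma SEs.

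Of 4 tested genes that are named with Ddit3 as inducible by DNA damage, from a list of 5, 1 was called higher and 1 lower. These shares were 25% each way, against 1.97% and 1.3% of all genes. Gadd45g, a stress sensor of growth arrest, had log2 ratios of 2.59 and 1.67 on arrays 1 and 3 and 2.08 and 2.11 on arrays 5 and 6, above those of Atf4 on each of these arrays. Its mean was 2.11 ± 0.17 (limma SE, 4 arrays, adjusted p = 0.00105), and it could not be tested with 1 of these arrays left out. Its relative Gadd45a averaged -0.88 ± 0.18 over 5 arrays, all below 0 (adjusted p = 0.0323), and the call was lost without array 4 or 5, held without array 6 and could not be tested without array 1 or 3. Ddit4, or REDD1, an inhibitor of mTORC1 that ATF4 also activates, averaged 0.47 ± 0.12 with 6 of 6 arrays above 0 and was not called (adjusted p = 0.0652).

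Markers of the cell types that fat can hold were called in 1 list alone, while 1.97% of all genes were called higher and 1.3% lower. By limma, 0 of 8 tested adipocyte markers were called, with log2 ratios from -0.47 for Pparg to 1.17 for Cidec. Their median was 0.28, above that of each gene list given before, but it differed between orientations. It was 0.49 with CL-316,243 in channel 1 alone and -0.02 with it in channel 2 alone. With all arrays, 6 of 8 were above 0, and 4 of 8, or 50%, had an unadjusted p under 0.05, against 18.6% of all genes. Likewise 0 of 7 leukocyte markers (-0.38 to 0.56), 0 of 5 endothelial markers (-0.51 to 0.12) and 0 of 2 mesothelial markers (-0.02 to 0.14) were called. In these lists 2, 1 and 0 genes had an unadjusted p under 0.05, or 28.6%, 20% and 0%. All 5 tested markers of the male reproductive tract, whose glands lie beside the epididymal fat, were called lower, from -5.47 for Svs5 to -1.16 for Svs4. Svs4 lost its call without array 1, 2, 4 or 5, and Svs2 and Svs6 could not be tested without array 1 or 3. Their part in the ratios of Atf4, Ddit3 and the other genes was not tested. A ratio gives no level, so the markers do not show how much of each cell type the pools held.

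**Figure D5:**
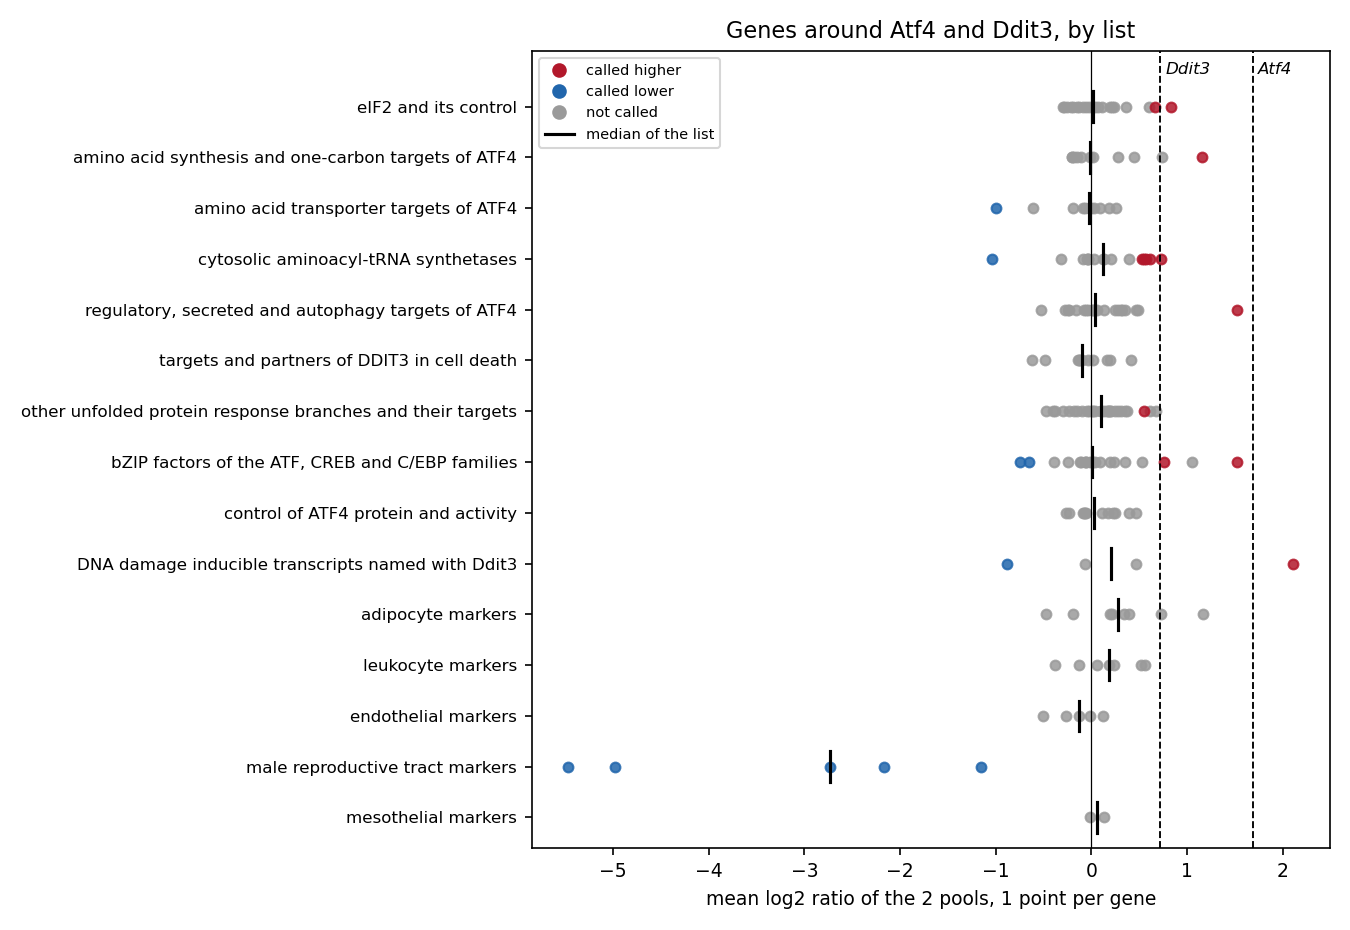
Mean log2 ratio of the 2 pools (x axis) for each tested gene of each list (y axis), red where limma called it higher, blue where lower and grey where not called, with the list's median as a black bar. Dashed lines mark Ddit3 at 0.72 and Atf4 at 1.69. Medians of the 10 gene lists above the markers lie between -0.10 and 0.20, and the male reproductive tract markers lie far below 0.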

How the data were processed

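Transcripts of 2 RNA pools of 6 mice each were compared on 6 arrays. Per the labels, QuantArray 3.0 quantified the scans, the channels were brought to a common scale and LOWESS was applied; the deposited values are log ratios, read as log2, with base and numerator not given in the sources used here. Columns without a sample numbered 0. Both genes and all lists were chosen with earlier results of these data known.

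The deposited columns did not run in parallel: between arrays, Spearman correlations of rows as deposited lay between -0.03 and 0.03. Each column was placed on the 19200 probe numbers by a hidden Markov model that lets a column only lose spots and scores each value by the other arrays (3 rounds, normal scores clipped at 3, probability of a next lost spot 0.5, starting correlation 0.3), and values with a posterior of at least 0.95 were kept. The mean correlation was then 0.28 within an orientation and 0.11 between orientations. Since the placement scores agreement between arrays, these correlations are not independent evidence, and p-values may be too small by an amount that was not measured.

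Symbols came from the platform annotation, where 14711 probes had 1 symbol, 6 had several and 4489 are unnamed here, and 14416 matched a RefSeq record. Probes of a gene were averaged. Genes with values on at least 2 arrays of each orientation were tested with limma 3.58.1 in R 4.3.3 (lmFit and eBayes, intercept against 0, orientation as a term, threshold 0.05). The fit was tested on simulated data. Named genes were all eIF2 genes, the called genes of each other list, then those past the size rule and the 3 largest ratios, up to 6 a list, plus DDIT3 partners, some standard readouts and the nearest 5 genes. Alternatives were each array left out, each orientation alone, rows as deposited, a posterior of 0.99, arrays at one spread, no dye term, 1 probe per gene, a 2-fold size rule and a placement that ignored both genes. Python 3.11.15 ran the other steps.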

Additional observations from a re-analysis of the deposited data

How the results depend on the processing

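With each array left out in turn, Atf4 averaged 1.55 to 1.87 and Ddit3 0.59 to 0.92 in log2 ratio, genes called higher numbered 91 to 214 and lower 30 to 170 (250 and 165 with all arrays), and the size rule took 159 to 281 higher and 82 to 165 lower (261 and 144). The counts called higher and lower were 105 and 46 without array 1, 155 and 68 without array 4, and 91 and 30 without array 5, and 99 were lower without array 6. Without array 1, 7851 genes could be tested, and without array 3, 7898. Calls ranged from 0 to 2 in the eIF2 list, 0 to 2 in amino acid synthesis, 0 to 1 in transporters, 1 to 4 in synthetases, 0 to 1 in regulatory targets, 0 to 1 in the unfolded protein response list, 1 to 4 in bZIP factors, 0 to 2 in the list named with Ddit3 and 2 to 5 in the male reproductive tract markers. The median of the list named with Ddit3 turned to -0.13 without array 5 and -0.25 without array 6 (0.20 with all arrays). These 2 fits tested 2 genes of the list in place of 4 and left out Gadd45g, so the medians are of different genes. With CL-316,243 in channel 1 alone, 67 genes were called higher and 9 lower, the size rule took 479 and 388, the list named with Ddit3 had 1 call, the male reproductive tract markers 3 and every other list 0. With it in channel 2 alone, the counts were 131 and 105, and 532 and 454, with 0 calls in the eIF2, amino acid synthesis, synthetase and unfolded protein response lists. The cause of these differences was not tested.

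With rows as deposited, limma called 0 genes higher and 0 lower, 489 of 13409 had an unadjusted p under 0.05, the size rule took 24 and 16, and every list had 0 calls. Atf4 was then 0.025 and Ddit3 0.18, and among genes called with the placement signs turned for Cars (-0.21), Eprs (-0.12), Tars (0.23), Wars (-0.18), Cebpd (-0.76), Svs5 (0.036), Svs4 (0.031) and Il6 (-0.089). Another 23 of 76 named genes, called in neither fit, also had the other sign. In that setting the cells of one row belong to different probes by the placement, so every result above rests on the placement. The 2-fold rule took 91 and 19 genes. The unfolded protein response list had 2 calls with arrays at one spread and 0 with no dye term, the list on control of ATF4 had 1 call with 1 probe per gene, and the list named with Ddit3 had 1 with a posterior of 0.99. Each ratio already compares both pools on the same array. The 2 orientations share no replicate number, so arrays were not paired across orientations. With 1 pool per treatment, no setting measures the variation between mice.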
